A study of Mus musculus with 4 samples.

Results

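The genes described here are 10 enzymes and inhibitors that cut, protect or crosslink the extracellular matrix. They were found by symbol in the deposited table of 24940 genes: the matrix metalloproteases Mmp2, Mmp7 and Mmp14, the inhibitors Timp1, Timp2 and Timp3, and the crosslinking enzymes Lox, Loxl1, Loxl2 and Tgm2. RNA was sequenced from pancreatic islets, which hold the insulin-secreting beta cells, of male mice aged 3 to 4 months on a low-fat chow diet. Of the 4 libraries, 2 came from Tafazzin-knockdown mice (replicates 3 and 4) and 2 from non-transgenic control mice (replicates 1 and 2). A library pooled roughly 300 islets of 2 to 3 mice. Tafazzin is the mitochondrial enzyme that remodels cardiolipin. The knockdown construct is not given in the sources used here, and since the controls carry no transgene, the transgene and the loss of Tafazzin cannot be told apart.

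Matrix metalloproteases are zinc enzymes that are made as inactive proenzymes and cut collagens, fibronectin and other matrix proteins. MMP14 sits in the cell membrane and, with TIMP2 as a bridge, activates proMMP2, so that TIMP2 takes part in activation as well as inhibition. Lysyl oxidases join collagen and elastin chains through oxidized lysines, and transglutaminase 2 joins glutamine to lysine side chains, for example in fibronectin. In the pancreas, stellate cells, fibroblasts, vessels and duct cells are known sources of these genes, whereas islet endocrine cells make little fibrillar matrix.

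Values are given in units of 1 read in 10000000 of a library's reads, with no scaling by gene length. The totals used for this scaling were 76680282 and 78630832 reads in knockdown replicates 3 and 4, and 68823160 and 81073502 in control replicates 1 and 2. From 75.3% to 76.2% of these totals fell in 17 very abundant rows of the table, all other rows together held 3428553 to 3996609 reads, and the remaining reads are in no row. A single read was worth 0.123 to 0.145 units. From 73.4% to 75.1% of the nonzero read counts were even, so that 2 counted reads often came as a pair and the number of independent fragments is nearer to the count divided by 2. Taz, the gene of Tafazzin, stood at 13.8 and 12.7 units in the knockdown libraries and 23.1 and 15.4 in the controls, without passing the test (limma adjusted p = 0.529). On the first principal component knockdown replicate 3 was the library most distant from the controls, at 33.6 against 11.8 for knockdown replicate 4 and -16.9 and -28.5 for control replicates 1 and 2. Log2 fold changes are those of log2(value + 1), knockdown over control, relative to the median of all 13531 tested genes. That median was 0.17 unshifted and -0.01 after median-ratio scaling. The p-values of limma refer to the change before that shift, and a gene passed at an adjusted p under 0.05.

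In the knockdown islets 7 of the 10 genes rose and 0 fell by limma. An unadjusted limma p under 0.05 in the lower direction was found in 0 of the 10 and in 63 of all 13531 tested genes. This 0 therefore does not set the 10 genes apart. Those that rose were Mmp2, Mmp7, Mmp14, Timp1, Lox, Loxl1 and Tgm2, and those that did not pass the test were Timp2, Timp3 and Loxl2. Over all tested genes 2.49% were called higher and 0.0443% lower. The median log2 fold change of the 10 genes was 1.33, against 0 by definition for all tested genes. Both knockdown libraries lay above both controls in 8 of the 10 genes, a pattern shown by 34.9% of all tested genes. An unadjusted limma p under 0.05 with a higher level was found in 8 of the 10 genes and in 9.88% of all genes. Genes below both controls in both knockdown libraries made up 4.49% of those tested, and 0 of the 10 were among them.

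The count of 7 differed between methods and with the library left out. The edgeR test on recovered reads called 4 of the 10 higher (1.24% of all genes), as did edgeR on halved reads (1.19%), DESeq2 (0.606%) and limma after quantile normalization (0.636%), and limma after median-ratio scaling called 5 (1.12%). Over the whole table limma called 337 genes higher and 6 lower, against 151 and 22 after median-ratio scaling. A pseudocount of 0.25 gave 7 of the 10 (2.44%), and so did a fit without a mean-variance trend (3.9%). Without knockdown replicate 3 limma called 1, Mmp2 (0.207%), and edgeR called 2, Mmp2 and Tgm2 (0.451%). Without knockdown replicate 4 each of limma and edgeR called 6 (2.39% and 2.87%). Leaving out control replicate 1 gave 5 by limma (9.36%) and leaving out control replicate 2 gave 8 (2.67%). When genes of low values were kept in, limma called 0 genes of the whole table (1484 passed unadjusted), and so did edgeR when control replicate 1 or control replicate 2 was left out (718 and 1102 passed unadjusted). None of these settings called any of the 10 lower. The share of all genes called lower was 0.163% after median-ratio scaling, 0.0517% after quantile normalization, 0.118% without a trend, 0.133% by edgeR on full and on halved reads and 0.0739% by DESeq2. It was 0.273% without control replicate 1 and 0.436% without control replicate 2 by limma. Without knockdown replicate 3 it was 0.0296% by limma and 0.399% by edgeR, and without knockdown replicate 4 it was 0.0222% and 0.421%.

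All 10 genes passed the filter on low values, a mean of at least 1 unit, but Mmp7 averaged below 1 unit in the controls and passed through the knockdown libraries alone.

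**Figure D1:**
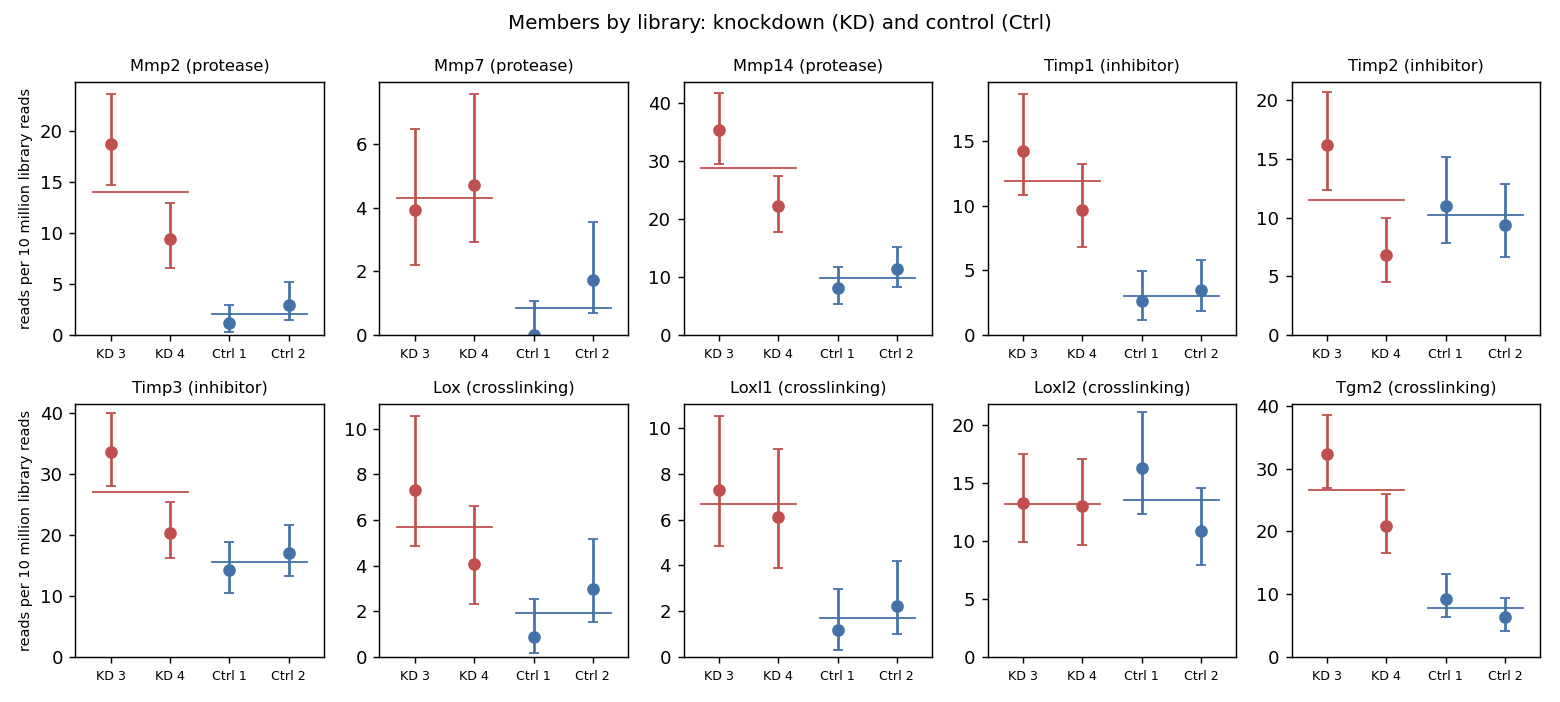
Reads per 10000000 library reads (vertical axes, each from 0) of the 10 genes in knockdown replicates 3 and 4 (red, left) and control replicates 1 and 2 (blue, right). Error bars are exact Poisson 95% intervals on read pairs, horizontal lines are group means; Timp2 and Loxl2 are the genes whose groups overlap.

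Mmp2 encodes gelatinase A, which cuts basement membrane collagen and gelatin, and it had the largest log2 fold change of the 10 at a pseudocount of 1. It stood at 18.8 and 9.41 units in the knockdown libraries and 1.16 and 2.96 units in the controls, which is 144 and 74 reads against 8 and 24. Both knockdown libraries lay above both controls, and knockdown replicate 3 had the highest value, with knockdown replicate 4 between it and the controls. The means were 14.1 ± 6.62 units in the knockdown and 2.06 ± 1.27 in the controls (SD, n = 2 each), a ratio of 6.84. Its log2 fold change was 2.13 ± 0.30 SE (limma adjusted p = 5.00e-11). The edgeR adjusted p was 0.00124 and the DESeq2 adjusted p 7.30e-04. It was the gene among the 10 that limma called with each of the 4 libraries left out, with the largest adjusted p, 0.00632, without knockdown replicate 3. Mmp2 spans 92827297 to 92853421 on the plus strand of mm10 chromosome 8 and overlaps no other gene of the table.

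Mmp14 encodes the membrane-bound protease that activates proMMP2. It stood at 35.2 and 22.1 units in the knockdown libraries, against 8.14 and 11.3 units in the controls. The groups did not overlap. The gap between them was wider than the gap between the controls but narrower than the gap between the knockdown libraries. The means were 28.7 ± 9.25 and 9.74 ± 2.27 units in knockdown and control islets (SD, n = 2 each). The log2 fold change was 1.28 ± 0.25 SE (limma adjusted p = 3.12e-06, edgeR 0.00322, DESeq2 0.0111). Without knockdown replicate 3 it was 0.97 and was not called (limma adjusted p = 0.301, edgeR 0.0503). Mmp14 lies on the plus strand of chromosome 14, from 54431598 to 54442456.

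Mmp7 encodes matrilysin, a small secreted metalloprotease without the hemopexin domain, known from epithelia, and its gene lies on the plus strand of chromosome 9, from 7692090 to 7699585. It was read at 3.91 and 4.71 units in the knockdown libraries (30 and 37 reads). In the controls it was read at 0 and 1.73 units (0 and 14 reads). The 0 reads of control replicate 1 allow up to 0.436 units (3 reads) if every read is independent, and up to 1.07 units by the exact Poisson 95% interval on read pairs, both for counting error alone. The log2 fold change was 1.52 ± 0.41 SE (limma adjusted p = 0.00357), and it was 2.52 with a pseudocount of 0.25. Mmp7 was not called by edgeR (adjusted p = 0.275), by DESeq2 (1.0), on median-ratio scaled values (0.118), or when control replicate 1 (0.142), knockdown replicate 3 (0.127) or knockdown replicate 4 (0.111) was left out. Its log2 fold change by limma was 0.66 when control replicate 1 was left out and 2.37 when control replicate 2 was. It was 1.63 with knockdown replicate 3 left out and 1.39 with knockdown replicate 4 left out. The first 3541 bases of its body lie across AV064505, a noncoding row on the other strand, which stood at 2.61 and 2.93 units in the knockdown and 0 and 0.370 in the controls. The library kit marks strand, but whether the counting used it is not given in the sources used here, so the values of both rows are uncertain.

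RefSeq promoter windows on GRCm38.p6, from 250 bases before to 50 after the start, matched 5 of the 10 genes. Those of Mmp7 and Mmp14 are shown because both genes rose and their windows differ in the motifs they hold. Capitals mark TGANTCA (the letters of AP-1, a dimer of Fos and Jun proteins), TGAGTAA (a variant of these letters), GGGCGG (the GC box bound by Sp1) and TATAAA (the TATA box), searched on both strands.
Mmp7 promoter, chr9:7691840-7692139, plus strand: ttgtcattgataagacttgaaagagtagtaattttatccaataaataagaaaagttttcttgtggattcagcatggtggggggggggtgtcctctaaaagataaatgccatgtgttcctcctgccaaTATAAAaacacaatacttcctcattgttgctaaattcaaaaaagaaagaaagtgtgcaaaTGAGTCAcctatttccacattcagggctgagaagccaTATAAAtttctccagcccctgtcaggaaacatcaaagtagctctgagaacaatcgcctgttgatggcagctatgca
Mmp14 promoter, chr14:54431348-54431647, plus strand: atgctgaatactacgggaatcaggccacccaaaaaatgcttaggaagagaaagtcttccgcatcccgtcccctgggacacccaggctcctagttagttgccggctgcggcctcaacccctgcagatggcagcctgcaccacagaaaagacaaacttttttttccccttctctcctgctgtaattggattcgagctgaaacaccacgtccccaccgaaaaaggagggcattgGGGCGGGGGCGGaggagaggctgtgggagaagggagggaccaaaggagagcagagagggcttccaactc
The Mmp7 window held TGAGTCA with its first base 63 bases before the start, and TATAAA beginning 26 and 123 bases before it. The Mmp14 window held GGGCGG 13 and 19 bases before the start, and no match to the TATA box or to either AP-1 word. Over all 32851 promoter windows of this length, 7.81% held TGANTCA, 2.68% TGAGTAA, 35.7% GGGCGG and 13.6% TATAAA. These are letter matches, not measured binding.

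Timp1 was the inhibitor that rose. It encodes a secreted glycoprotein that blocks most secreted metalloproteases, and it inhibits MMP14 poorly. It stood at 14.2 and 9.67 units in the knockdown libraries and 2.62 and 3.45 in the controls. Each knockdown library was above each control, and the 4 values rest on 109, 76, 18 and 28 reads in that order. The means were 11.9 ± 3.22 units in the knockdown and 3.03 ± 0.593 in the controls (SD, n = 2 each), and the log2 fold change was 1.501 ± 0.29 SE (limma adjusted p = 3.12e-06, edgeR 0.00608, DESeq2 0.0221). With knockdown replicate 3 left out Timp1 missed the threshold (limma adjusted p = 0.0793, edgeR 0.127). Timp1, on the plus strand of chromosome X from 20870166 to 20874737, lies whole within Syn1, a synapsin gene on the other strand, without touching its exons. Syn1 stood at 78.4 and 76.9 units in the knockdown and 74.7 and 57.6 in the controls (log2 fold change 0.07 ± 0.24 SE, limma adjusted p = 0.859).

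Timp2, the inhibitor that also bridges MMP14 and proMMP2, overlapped between the groups. It stood at 16.2 and 6.87 units in the knockdown libraries and 11.04 and 9.37 in the controls. The knockdown libraries were the highest and the lowest of the 4, so that the sign of the difference turned with the library left out. Timp2 had a log2 fold change of -0.11 ± 0.27 SE (limma adjusted p = 0.980). It was 0.44 without knockdown replicate 4 and -0.66 without knockdown replicate 3. Timp2 lies on the minus strand of chromosome 11, from 118301061 to 118355411, and holds Cep295nl, which had 0 and 0.254 units in the knockdown and 0 in both controls.

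Timp3, the inhibitor that binds to the matrix and also blocks ADAM proteases, stood at 33.6 and 20.3 units in the knockdown libraries, against 14.2 and 17.0 in the controls. The groups did not overlap, but knockdown replicate 4 was close to control replicate 2, and the difference did not pass the test (0.55 ± 0.25 SE, limma adjusted p = 0.118, edgeR 0.290). With control replicate 2 left out limma called it, at 0.81 and an adjusted p of 0.0153. Timp3, on the plus strand of chromosome 10 from 86300412 to 86349505, lies within Syn3 on the other strand, outside the exons of the Syn3 transcript named in the table, but 1733 nt of exon overlap when all GENCODE transcripts of both genes are taken. Syn3 exceeded Timp3 by 7.17 and 10.0 units in the knockdown and 4.65 and 4.81 in the controls, and whether reads of Timp3 are also counted in Syn3 was not tested.

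The promoter windows of Timp1 and Timp2 are shown as those of an inhibitor that rose and of one whose groups overlapped, with capitals as above.
Timp1 promoter, chrX:20869916-20870215, plus strand: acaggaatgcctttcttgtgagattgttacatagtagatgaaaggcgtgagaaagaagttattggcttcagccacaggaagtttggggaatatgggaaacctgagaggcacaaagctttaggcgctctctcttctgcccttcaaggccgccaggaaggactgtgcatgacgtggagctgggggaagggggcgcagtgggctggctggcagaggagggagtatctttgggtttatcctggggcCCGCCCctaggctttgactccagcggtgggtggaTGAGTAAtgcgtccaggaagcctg
Timp2 promoter, chr11:118355362-118355661, minus strand: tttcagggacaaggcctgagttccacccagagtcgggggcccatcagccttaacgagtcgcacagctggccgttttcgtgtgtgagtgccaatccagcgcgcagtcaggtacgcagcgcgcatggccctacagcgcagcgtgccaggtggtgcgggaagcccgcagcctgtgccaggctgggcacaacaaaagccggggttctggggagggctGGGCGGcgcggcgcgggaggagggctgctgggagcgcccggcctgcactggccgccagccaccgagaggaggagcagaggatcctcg
The Timp1 window held TGAGTAA at base 27 after the start and GGGCGG, on the other strand, 8 bases before it. The Timp2 window held GGGCGG 37 bases before the start and neither of the AP-1 words. It was richer in G and C, at 68.7% of its bases, against 55.0% for Timp1, 56.0% for Mmp14 and 39.0% for Mmp7. The Timp3 window, which is not shown, was close to it at 67.0% and also held GGGCGG, on the other strand.

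Among the crosslinking enzymes Tgm2 had the largest difference in units. Transglutaminase 2 crosslinks fibronectin and other proteins outside the cell and also binds GTP inside it. Tgm2 stood at 32.3 and 20.9 units in the knockdown libraries and 9.30 and 6.41 in the controls. All values of the knockdown lay above those of the controls, and the means were 26.6 ± 8.12 and 7.86 ± 2.04 units in knockdown and control islets (SD, n = 2 each). Tgm2 had a log2 fold change of 1.46 ± 0.26 SE (limma adjusted p = 1.02e-07, edgeR 4.01e-04, DESeq2 3.91e-04). Without knockdown replicate 3 limma did not call it (adjusted p = 0.0783), whereas edgeR did (adjusted p = 0.00598). Tgm2 lies on the minus strand of chromosome 2, from 158116405 to 158146392.

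The lysyl oxidases did not move as one. Loxl1, which is needed for elastic fibres, stood at 7.30 and 6.10 units in the knockdown libraries and 1.16 and 2.22 in the controls. The log2 fold change of Loxl1 was 1.38 ± 0.34 SE (limma adjusted p = 7.58e-04). It passed after median-ratio scaling (limma adjusted p = 0.0410), but not by edgeR (0.0589), by DESeq2 (0.238) or without knockdown replicate 3 (limma adjusted p = 0.209).

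Lox, the founding lysyl oxidase of collagen and elastin, stood at 7.30 and 4.07 units in the knockdown libraries and 0.872 and 2.96 in the controls. The groups did not overlap, but the controls rest on 6 and 24 reads and knockdown replicate 4 on 32. The log2 fold change of Lox was 1.09 ± 0.35 SE (limma adjusted p = 0.0215). It was not called by edgeR (adjusted p = 0.345), by DESeq2 (0.926), on median-ratio scaled values (0.269), or when control replicate 1 (0.227) or knockdown replicate 3 (1.0) was left out. By limma its log2 fold change was 0.41 when control replicate 1 was left out and 1.76 when control replicate 2 was, and 0.74 and 1.43 when knockdown replicate 3 and knockdown replicate 4 were left out in turn.

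Loxl2, which acts on basement membrane collagen, stood at 13.3 and 12.97 units in the knockdown libraries, against 16.3 and 10.9 in the controls. Both knockdown values lay between the controls, with a log2 fold change of -0.18 ± 0.26 SE (limma adjusted p = 0.994). Loxl2 lies on the plus strand of chromosome 14, from 69609476 to 69695834, and Loxl1 on the minus strand of chromosome 9, from 58287723 to 58313212.

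**Figure D2:**
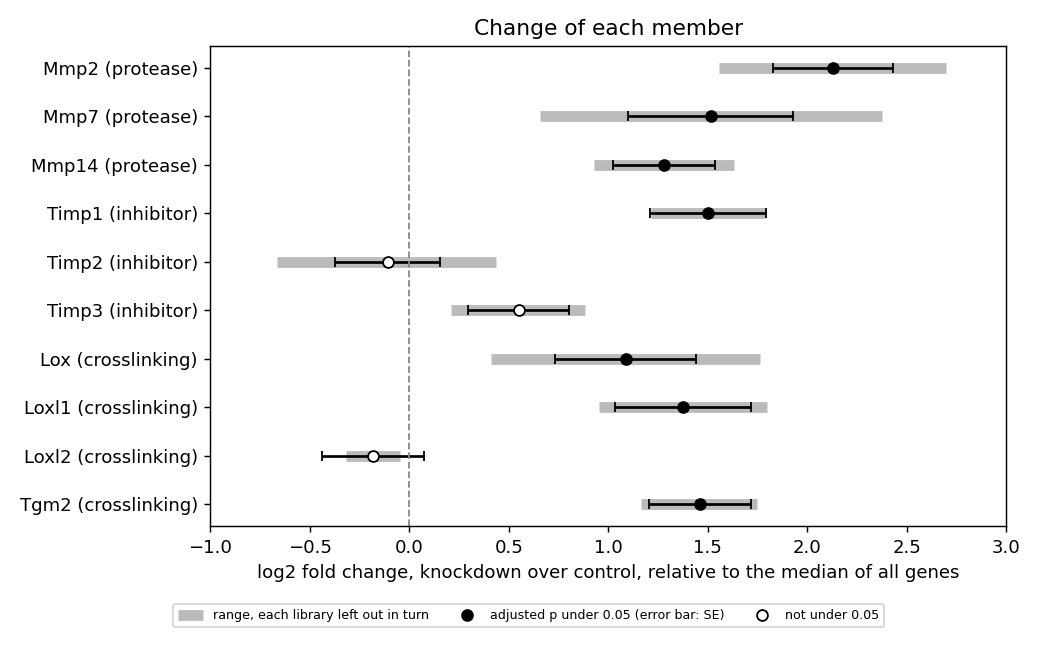
Log2 fold change of each gene, knockdown over control, relative to the median of all tested genes (horizontal axis), with SE bars; filled points have a limma adjusted p under 0.05. Grey bars span the limma values with each of the 4 libraries left out in turn: that of Timp2 crosses 0, from -0.66 to 0.44, and that of Mmp2 runs from 1.56 to 2.70.

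Ratios within a library do not depend on its scaling, and Timp2, whose groups overlap, was taken as their base after its values were seen. Mmp2 stood at 1.16 and 1.37 times Timp2 in the knockdown libraries and 0.105 and 0.316 times in the controls. Mmp14 stood at 2.18 and 3.22 times Timp2 in the knockdown and 0.737 and 1.21 times in the controls, and Timp1 at 0.879 and 1.41 against 0.237 and 0.368 times. In each of these 3 ratios both knockdown libraries lay above both controls, and for Mmp2 the knockdown libraries lay closer together than in units. Timp3, which did not pass the test, was separated on this base too, at 2.08 and 2.96 against 1.29 and 1.82 times Timp2. The share of all genes separated on this base was not counted. With 2 libraries against 2 an exact two-sided permutation test cannot go below 0.333, so that no p is given for a ratio. Mmp14 stood at 2.48 and 2.29 times Timp1 in the knockdown and 3.11 and 3.29 times in the controls. Summed over each role, the proteases held 57.9 and 36.2 units in the knockdown and 9.30 and 16.0 in the controls. The inhibitors held 64.0 and 36.9 units in the knockdown and 27.9 and 29.9 in the controls, and the crosslinking enzymes 60.3 and 44.0 against 27.6 and 22.4.

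Per kilobase of exon, of the GENCODE transcript matched to the table's accession, the order of the levels differed between the groups. In knockdown islets Timp1 had the highest mean (13.5 units per kb), followed by Mmp14 (11.04), Tgm2 (7.40), Timp3 (5.72), Mmp2 (4.58), Loxl2 (4.32), Mmp7 (4.03), Timp2 (3.11), Loxl1 (2.03) and Lox (1.20). The 2 knockdown libraries of Timp1, at 16.1 and 10.9, overlapped those of Mmp14, at 13.6 and 8.52. Each further pair of neighbours in the knockdown overlapped too, except that Loxl1, at 2.22 and 1.85, lay above Lox, at 1.54 and 0.858. Within each knockdown library, however, Timp1 lay above Mmp14, Mmp14 above Tgm2, Tgm2 above Timp3 and Timp3 above Mmp2. Timp2 lay above Loxl1 too, by very little in knockdown replicate 4. In the controls Loxl2 had the highest mean (4.46 units per kb), followed by Mmp14 (3.75), Timp1 (3.44), Timp3 (3.31), Timp2 (2.75) and Tgm2 (2.18). Mmp7 (0.809), Mmp2 (0.670), Loxl1 (0.513) and Lox (0.404) stood lowest. Neighbours overlapped there too, except for Timp3 above Timp2 and Tgm2 above Mmp7. Within each control Mmp14 also lay above Timp1, Timp2 above Tgm2, Mmp2 above Loxl1 and Loxl1 above Lox. Whether introns were counted is not given in the sources used here, and this decides which length applies. Per kilobase of gene span the highest means were those of Mmp14 (2.64) and Timp1 (2.61) in the knockdown, also first in the controls (0.897 and 0.664), while Loxl2 stood at 0.152 in the knockdown and 0.157 in the controls.

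Summed markers of several other cell types were also higher in the knockdown libraries. Summed over 15 markers of stellate cells, fibroblasts and pericytes, none of them at 0, the libraries held 474 and 369 units in the knockdown and 169 and 165 in the controls, and all 15 lay above both controls in both knockdown libraries, as did 34.9% of all tested genes. Limma called 9 of these 15 higher, 6 of the 11 endothelial markers and 3 of the 10 tested duct markers, where 2.49% of all genes were called higher. It also called 2 of the 7 tested macrophage markers higher. Of the mesothelial, acinar, beta cell, alpha and delta cell and Schwann cell markers it called 0 higher. The stellate and fibroblast list shares Col1a1, Col1a2, Col3a1, Dcn and Sparc with the list of substrates. The 11 endothelial markers summed to 350 and 266 units in the knockdown and 167 and 153 in the controls, and the 11 duct markers to 1728 and 1147 against 901 and 948. All 11 endothelial markers lay above both controls in both knockdown libraries, but only 5 of the 11 duct markers did, where 34.9% of all tested genes did. Macrophage markers summed to 52.2 and 42.6 units in the knockdown and 35.2 and 34.4 in the controls. Of the 10 found, 3 lay above both controls in both knockdown libraries and 1 below, against 34.9% and 4.49% of all tested genes. The 6 mesothelial markers summed to 18.0 and 12.1 units against 9.01 and 8.14. Of these, Wt1, Lrrn4, Upk1b and Krt14 were at 0 in all 4 libraries. Alpha and delta cell markers summed to 7713 and 7573 units against 6658 and 7222, and Schwann cell markers to 93.1 and 84.4 against 78.5 and 75.9. Of the 6 markers in each of these lists, 2 lay above both controls in both knockdown libraries, and 1 of alpha and delta cells lay below. The shares of all tested genes were again 34.9% above and 4.49% below, so these counts do not set the 2 lists apart. Acinar markers overlapped, at 3978 and 1928 units in the knockdown and 2338 and 4670 in the controls, as did beta cell markers, at 83023 and 89966 against 98482 and 77867. In bulk islets more cells of a type and more RNA per cell cannot be told apart, and the part of these cells in the changes of the 10 genes was not tested.

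Set against the summed stellate and fibroblast markers of the same library, Mmp2 was at 3.96 and 2.55 units per 100 marker units in the knockdown and 0.689 and 1.79 in the controls. Timp1 was at 3.00 and 2.62 per 100 in the knockdown and 1.55 and 2.09 in the controls. Mmp14 overlapped on this scale, at 7.42 and 5.998 in the knockdown and 4.83 and 6.88 in the controls, and Lox and Mmp7 overlapped too, whereas Loxl1 and Tgm2 lay higher in the knockdown. Timp2, Timp3 and Loxl2 lay lower in the knockdown on this scale, Timp3 at 7.09 and 5.52 against 8.45 and 10.3 per 100, Timp2 at 3.41 and 1.86 against 6.55 and 5.68 per 100 and Loxl2 at 2.80 and 3.52 against 9.66 and 6.58. The stellate and fibroblast sum was itself 2.53 times as high in the knockdown as in the controls, and other sums gave other results for Timp3 and Mmp14. Timp3 overlapped per 100 units of endothelial markers, at 9.61 and 7.64 in the knockdown and 8.53 and 11.1 in the controls, and per 100 units of duct markers, at 1.95 and 1.77 against 1.58 and 1.80. Mmp14 lay higher in the knockdown on both, at 10.1 and 8.31 against 4.87 and 7.42 per 100 endothelial units and at 2.04 and 1.93 against 0.904 and 1.20 per 100 duct units. Timp2 and Loxl2 lay lower in the knockdown on all 3 scales, and Mmp2, Timp1, Loxl1 and Tgm2 higher. The endothelial and duct sums were also higher in the knockdown, at 1.93 and 1.56 times the controls. A gene with unchanged units therefore falls on all 3 scales, so the lower position of Timp2 and Loxl2 is no separate result.

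**Figure D3:**
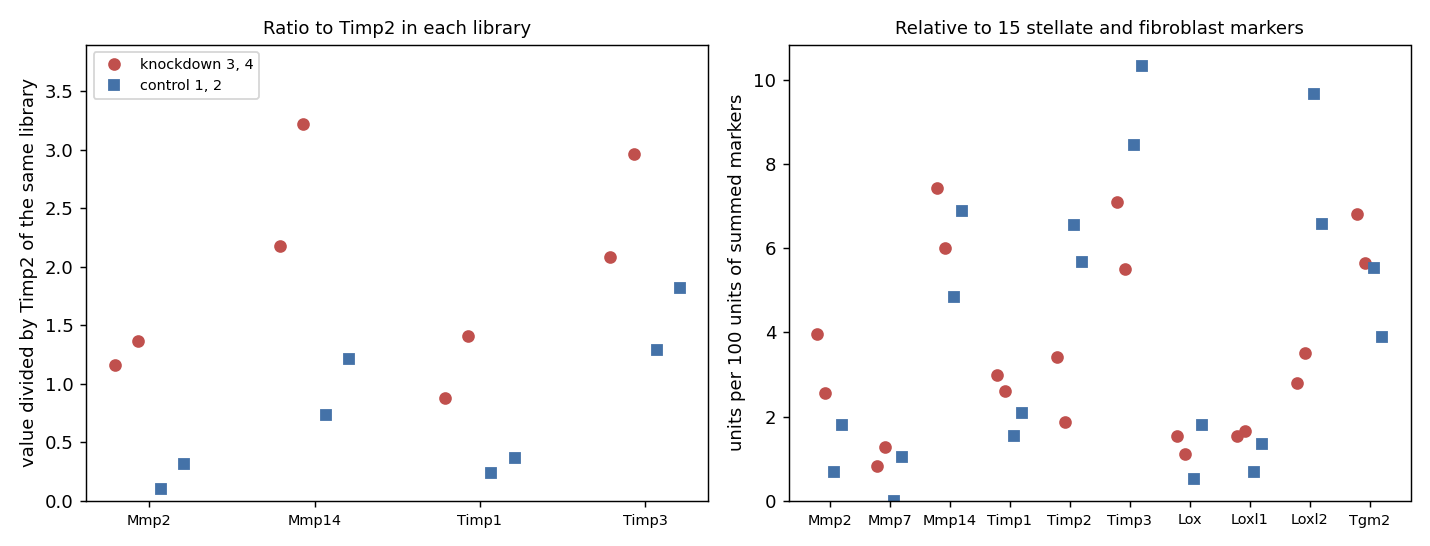
Left, the value of Mmp2, Mmp14, Timp1 and Timp3 divided by that of Timp2 in the same library. Right, each gene per 100 units of 15 summed stellate and fibroblast markers; red circles are knockdown replicates 3 and 4, blue squares control replicates 1 and 2. Mmp2 lies higher in both knockdown libraries in both panels. Timp2, Timp3 and Loxl2 lie lower on the right, where the marker sum itself was higher in the knockdown.

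The wider matrix remodelling genes, 72 tested genes in 6 lists, held 17 called higher and 0 called lower by limma, against 2.49% and 0.0443% of all tested genes. Of 6 other tested metalloproteases 0 were called, by limma or edgeR, with a median log2 fold change of 0.47. Of these, 2 had an unadjusted limma p under 0.05 with a higher level, Mmp3 (0.0211) and Mmp16 (0.00467), as did 9.88% of all genes. A further 14 members of the family did not reach the filter. Mmp12 and Mmp16 averaged below 1 unit in the controls and passed the filter through the knockdown libraries alone. The median of the list includes both. Mmp24, the most abundant, stood at 20.5 and 21.7 units in the knockdown and 21.5 and 20.2 in the controls.

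Of 17 ADAM and ADAMTS proteases 3 rose and 0 fell, with a median of 0.24. Adam12, a metalloprotease-disintegrin of mesenchymal cells, stood at 11.9 and 10.9 units in the knockdown and 1.45 and 3.45 in the controls (1.74 ± 0.30 SE, limma adjusted p = 1.27e-07), and limma called it with knockdown replicate 3 left out (0.00244). Adamts1, which cuts proteoglycans, stood at 36.3 and 28.7 units in the knockdown and 15.1 and 9.13 in the controls (1.22 ± 0.25 SE, limma adjusted p = 9.26e-06), and was not called without knockdown replicate 3 (0.212). Adam8 passed only narrowly (0.93 ± 0.32 SE, limma adjusted p = 0.0302, edgeR 0.344), and Adam10, the most abundant, was at 82.0 and 69.4 units in the knockdown and 70.9 and 58.5 in the controls.

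Of 11 other inhibitors and activators 3 rose and 0 fell, with a median of 0.02. Plaur, the urokinase receptor, stood at 22.7 and 11.7 units in the knockdown and 5.52 and 7.89 in the controls (1.02 ± 0.26 SE, limma adjusted p = 7.55e-04, edgeR 0.0660). Serpine2, a protease nexin, stood at 12.3 and 6.61 units in the knockdown and 2.62 and 5.18 in the controls (0.92 ± 0.30 SE, limma adjusted p = 0.0140, edgeR 0.283). Limma called 0 of the 11 with knockdown replicate 3 left out. Cd44, a hyaluronan receptor and the most abundant of the list, stood at 792 and 868 units in the knockdown and 1528 and 902 in the controls. It did not pass by limma (-0.67 ± 0.21 SE, adjusted p = 0.269), but fell by limma on median-ratio scaled values (0.00501) and by edgeR (0.0351).

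Of 20 collagen processing and hydroxylating enzymes 1 rose, a share near the 2.49% of all genes, with a median of 0.14. This was Serpinh1, the collagen chaperone HSP47, at 59.7 and 47.6 units in the knockdown and 18.9 and 26.4 in the controls (1.05 ± 0.25 SE, limma adjusted p = 1.15e-04, edgeR 0.00308), which limma did not call with knockdown replicate 3 left out (0.747). P4hb, the most abundant, overlapped at 571 and 660 units in the knockdown and 719 and 582 in the controls. Of 3 other crosslinking enzymes Pxdn, the peroxidase that crosslinks collagen IV, rose by limma (0.71 ± 0.25 SE, adjusted p = 0.0292) but not by edgeR (0.144). It stood at 33.8 and 15.3 units in the knockdown and 13.1 and 10.98 in the controls.

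Of 15 substrates of these enzymes 9 rose and 0 fell, with a median of 1.10. That median is the value of Eln, which encodes elastin. Eln averaged below 1 unit in the controls and passed the filter through the knockdown libraries alone. Col1a1, a chain of the main fibrillar collagen, stood at 66.5 and 48.1 units in the knockdown and 18.6 and 17.5 in the controls (1.43 ± 0.25 SE, limma adjusted p = 6.25e-08). Bgn and Dcn, small proteoglycans that bind collagen, rose as well (limma adjusted p = 1.56e-07 and 1.89e-06), as did Fn1, Col3a1 and Col1a2. Fn1, encoding fibronectin, had the largest fold change of the list, at 29.5 and 16.3 units in the knockdown and 2.91 and 2.22 in the controls (2.53 ± 0.28 SE, limma adjusted p = 9.04e-19). Without knockdown replicate 3 limma called 3 of the 15, namely Fn1, Col1a2 and Col3a1, and Col1a1 was not among them (adjusted p = 0.155). The basement membrane chain Col4a1, the most abundant substrate, did not pass, at 143 and 120 units in the knockdown and 88.6 and 80.1 in the controls (0.47 ± 0.24 SE, limma adjusted p = 0.161).

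**Figure D4:**
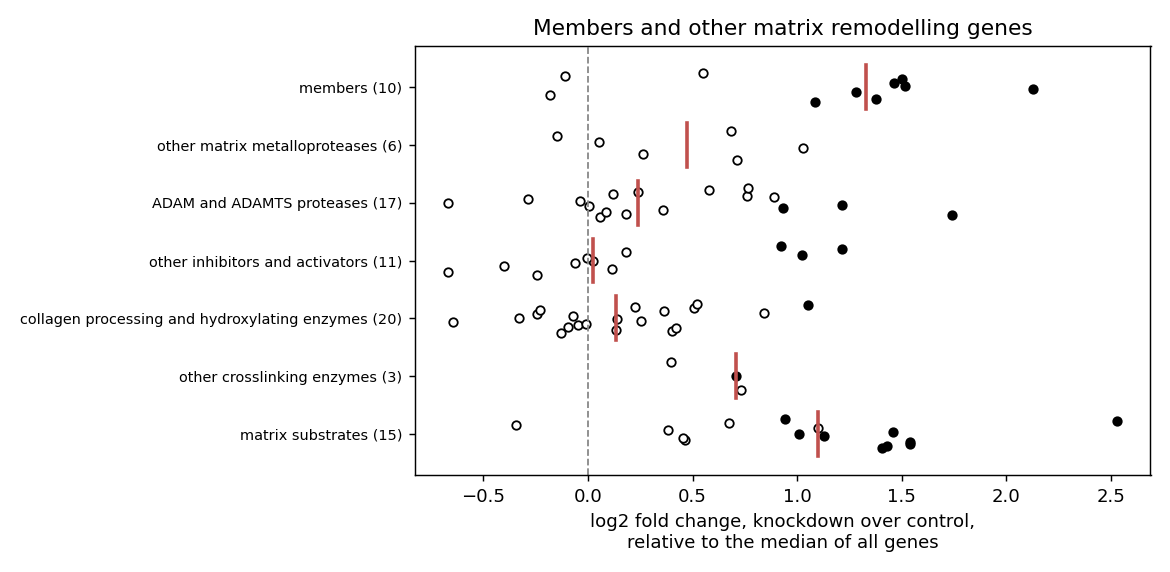
Log2 fold changes, knockdown over control, relative to the median of all tested genes (horizontal axis), of the 10 genes and of 6 lists of other matrix remodelling genes, with the number tested in brackets. Points are genes, filled where the limma adjusted p is under 0.05, and red lines are list medians: 1.33 for the 10 genes, 1.10 for the substrates and 0.02 for the other inhibitors and activators. The substrate median is the value of Eln, which passed the filter through the knockdown libraries alone.

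The genes whose values over the 4 libraries lay nearest to Mmp2, by the root mean square difference of centred log2(value + 1) among 10387 genes outside the remodelling lists with a mean of at least 5 units, were Aqp1 (0.138), Aplnr (0.171) and Scara3 (0.198). Aqp1, a water channel of endothelium and ducts, stood at 13.6 and 6.10 units in the knockdown and 0.872 and 1.73 in the controls. Aplnr, the apelin receptor, stood at 19.8 and 9.92 units in the knockdown and 2.03 and 3.45 in the controls, and Scara3, a scavenger receptor family member, at 31.6 and 17.6 against 4.07 and 7.28.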

How the data were processed

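The authors deposited 1 table with a signal per gene and library, scaled to 10000000 reads per library; FPKM had been assumed in planning, and the test on a log scale was kept. Whole reads were recovered for 100% of the values, within 0.01 reads. The submitters' processing notes name STAR 2.5.1b, HOMER 4.9, edgeR and the build mm10 and give no roles. The counted region and strand setting are not given in the sources used here. The library kit marks strand, per the labels' protocols, but the counting may not have used it, so overlapping genes are uncertain. Replicate libraries differed by more than counting noise (chi-square per degree of freedom 17.5 between the controls, 8.57 between the knockdown libraries).

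Limma 3.58.1 (R 4.3.3) was fitted to log2(value + 1) over the 13531 genes that averaged 1 unit or more and were 200 nt or longer, with a mean-variance trend, two-sided, with Benjamini-Hochberg adjustment. Its prior degrees of freedom were infinite, so each gene took the spread of the trend. The p-values and SE of this fit thus rest on the spread between these 4 pools that is typical of genes at a similar level. They do not measure the spread of the single gene between the pools. On recovered reads edgeR 4.0.16 and DESeq2 1.42.0 were run as alternatives. All were also run on simulated reads that were not paired, with changes larger than those of most of the 10 genes. That run does not show how the tests fare on these data. The genes named are the 10 members, overlapping genes, up to 6 called genes and the most abundant gene of each list, and the 3 genes nearest to the member with the smallest p. A few genes outside this rule are named for their unadjusted p or for how they passed the filter. Members and lists were chosen with earlier results of these data known. A gene that this rule names is not reported here.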

Additional observations from a re-analysis of the deposited data

How the results depend on the processing

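No paired analysis was possible because the groups share no replicate number. Of the 10 genes, limma called 7 higher. Quantile normalization, edgeR, DESeq2 and edgeR on halved reads each gave 4, and no filter on low values gave 0 (8 of the 10 passed unadjusted). With 1 library left out the number lay between 0 and 8. The 0 came from edgeR without control replicate 1 or 2, which called 0 genes in the whole table (718 and 1102 passed unadjusted). No setting called any of the 10 lower.

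Over the whole table limma called 337 higher and 6 lower. Median-ratio scaling gave 151 and 22, quantile normalization 86 and 7, no filter 0 and 0 (1484 genes with an unadjusted p under 0.05), no trend 528 and 16, edgeR 168 and 18, DESeq2 82 and 10, and edgeR on halved reads 161 and 18. With 1 library left out the counts lay between 0 and 1266 higher, the most without control replicate 1, and between 0 and 59 lower. Without knockdown replicate 3 limma called 28 higher and edgeR 61 higher and 54 lower; without knockdown replicate 4 limma called 3 lower and edgeR 57.

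Of the 72 other remodelling genes 17 were called higher. Quantile normalization gave 11, DESeq2 10, no filter 0 (36 of 99 with an unadjusted p under 0.05), and leaving out 1 library 0 to 20. The lower calls numbered 0 by limma and 1 by median-ratio scaling, edgeR, DESeq2 and edgeR on halved reads, and 0 to 1 with a library left out. Among the 10 genes Timp2 alone changed sign: by limma -0.66 without knockdown replicate 3 and 0.44 without knockdown replicate 4, by edgeR -0.73 and 0.48, and 0.013 by edgeR without control replicate 2. The cause was not tested. The edgeR fits with a library left out and on halved reads were chosen after seeing the data. At this depth Mmp7, Lox and Loxl1 rest on 0 to 56 reads per library.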
